A study of Caenorhabditis elegans with 18 samples.

Results

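The cilium genes described here are 47 genes of *C. elegans* known for intraflagellar transport, the BBSome, the transition zone and their regulators in sensory neurons. They were taken by their WormBase symbols and gene identifiers from a list, not by any measured value, and all 47 were found among the 46726 genes counted in each library. The study asked how loss of an RNA binding protein and loss of a transcription factor combine, and measured gene counts in poly(A) RNA of whole animals synchronized at the last larval stage (L4). There were 18 libraries, 3 biological replicates (A, B and C) of each of 6 genotypes. The double mutant *fust-1; ceh-14* carried a *fust-1(csb21)* deletion and the *ceh-14(ch3)* deletion, and the double mutant *tdp-1; ceh-14* carried a *tdp-1(csb38)* deletion and *ceh-14(ch3)*. Each of the single mutants (*ceh-14*, *tdp-1* and *fust-1*) carried 1 of these alleles, and N2 is the wild type. The *csb21* deletion bears a myo-2::GFP marker and the *csb38* deletion a myo-3::GFP marker in place of the gene, so animals with these alleles also express GFP in pharyngeal or body wall muscle, which N2 and *ceh-14* do not. The deletions are carried by every cell of the animal, and no treatment was given.

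A cilium is built and kept up by intraflagellar transport, in which trains of IFT-B and IFT-A proteins carry cargo along the axoneme. Kinesin motors carry the trains to the tip and a ciliary dynein carries them back, while the BBSome links membrane cargo to the trains and the transition zone at the base gates entry. In *C. elegans* only sensory neurons are ciliated, and many of their cilium genes are switched on by DAF-19, an RFX transcription factor. FUST-1 and TDP-1 are RNA binding proteins, and CEH-14 is a LIM homeodomain transcription factor of certain sensory neurons and of the spermatheca.

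Libraries held 19556372 to 119814176 counts in genes, and the 47 cilium genes took 0.0115% to 0.0140% of them, which is 2388 to 15637 counts per library. Levels are given as CPM (counts scaled to a common library total, with TMM factors to even out composition between libraries), and a count in the shallowest library, N2 C, is therefore worth more CPM than in any other. Each targeted gene was lower in every library with its deletion. *fust-1* stood at 35.9 to 51.6 CPM in the 6 libraries with its deletion, against 144 to 183 CPM in the others, *tdp-1* at 13.7 to 23.2 CPM against 84.2 to 124 CPM, and *ceh-14* at 0.675 to 2.47 CPM against 2.70 to 7.004 CPM. In 2 libraries, *tdp-1; ceh-14* C and *fust-1* C, 21 pan-neuronal genes summed to 548 and 601 CPM, against 627 to 898 CPM in the other libraries, and 6 genes of the glia around sensory endings summed to 39.2 and 38.9 CPM, against 65.7 to 129 CPM. The same 2 libraries were also the lowest in 5 body wall muscle genes (2886 and 2926 CPM, against 3423 to 6567 CPM). In 8 germline genes *tdp-1; ceh-14* C was lowest at 2522 CPM, while *fust-1* C at 3527 CPM was level with N2 B at 3529 CPM. The other libraries reached up to 4965 CPM. In other lists the 2 libraries differed. *fust-1* C was the lowest of all in 5 intestine genes (1711 CPM, against 2839 CPM in *tdp-1; ceh-14* C). It was also the lowest in 5 epidermis genes (33.5 CPM, against 65.6 CPM in *tdp-1; ceh-14* C). Sperm genes, 8 in number, summed to 176 CPM in *tdp-1; ceh-14* C and 154 CPM in *fust-1* C, against 64.4 to 155 CPM in the others. In whole animals, fewer cells of a type and less RNA per cell cannot be told apart.

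Most cilium genes were low. The median of the 47 genes was 0.431 CPM per kilobase of exon, against 7.16 over all genes that passed the count filter. The highest level per length was that of *hyls-1*, a centriole and basal body protein, at 12.6 CPM per kilobase, followed by *klp-20*, a kinesin-II motor subunit, at 6.13, *dyf-3* of IFT-B at 4.26, *daf-19* at 4.12 and *klp-11*, the other kinesin-II motor subunit, at 3.45. Within the remaining role groups the highest were *mksr-2* of the transition zone at 2.86 CPM per kilobase, *bbs-5* of the BBSome at 1.58 and *dyf-2* of IFT-A at 0.715. *mks-3* at 0.115 and *cil-7* at 0.130 CPM per kilobase were the lowest. *mks-2* was the 1 gene without a count in some library (in *ceh-14* A and in N2 C) and passed the count filter in no comparison. The filter also left out *ift-20*, *mks-3* or *cil-7* in some comparisons, so that 43 to 46 of the 47 were tested.

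**Figure D1:**
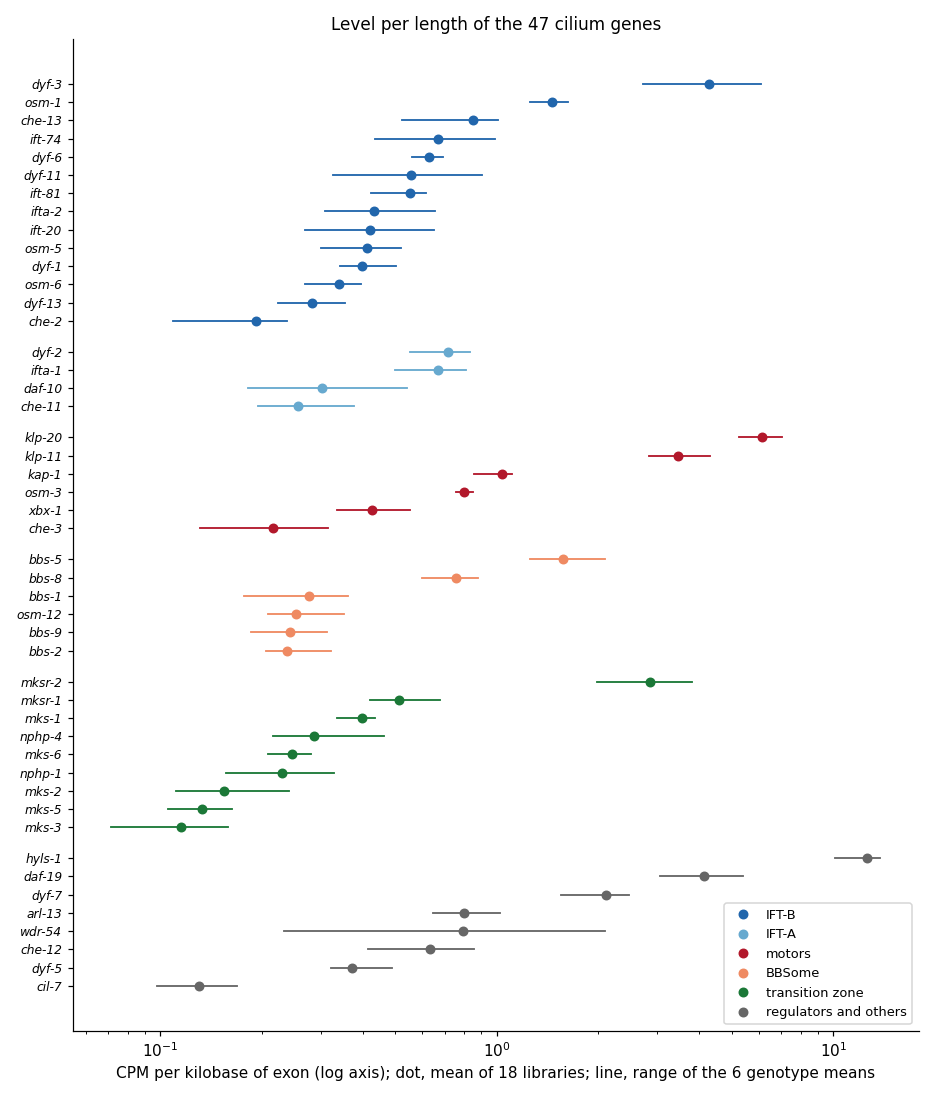
Mean level of each of the 47 cilium genes over 18 libraries, in CPM per kilobase of exon on a log axis, grouped by role, with a line over the range of the 6 genotype means. *hyls-1* lies highest at 12.6 and *mks-3* lowest at 0.115, and *wdr-54* has the widest range of genotype means on this log axis.

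In a test of any difference among the 6 genotypes, 4 of 46 cilium genes passed an adjusted p of 0.05 (edgeR quasi-likelihood F test, adjusted by Benjamini-Hochberg over 17560 genes), where 4.63% of all genes did. These were *wdr-54* (adjusted p = 5.59e-06), *dyf-3* (0.00122), *dyf-11* (0.00891) and *daf-10* (0.00998). Next came *bbs-5* with an adjusted p of 0.0626 and *ift-74* with 0.152. The range of genotype means was of similar size in the cilium genes and in all genes, without matching for level. Most cilium genes were low, and their ranges may hold more counting noise, so similar medians do not show equal movement. The median range of genotype means was 0.76 on the log2 scale for the 47 genes and 0.68 for all genes, and the median SD within genotypes was 0.32 and 0.36 (n = 3 libraries per genotype). The smallest range of means among the 47 was 0.16, for *osm-3*, the homodimeric kinesin of the distal cilium. The widest was 3.10, for *wdr-54*.

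**Figure D2:**
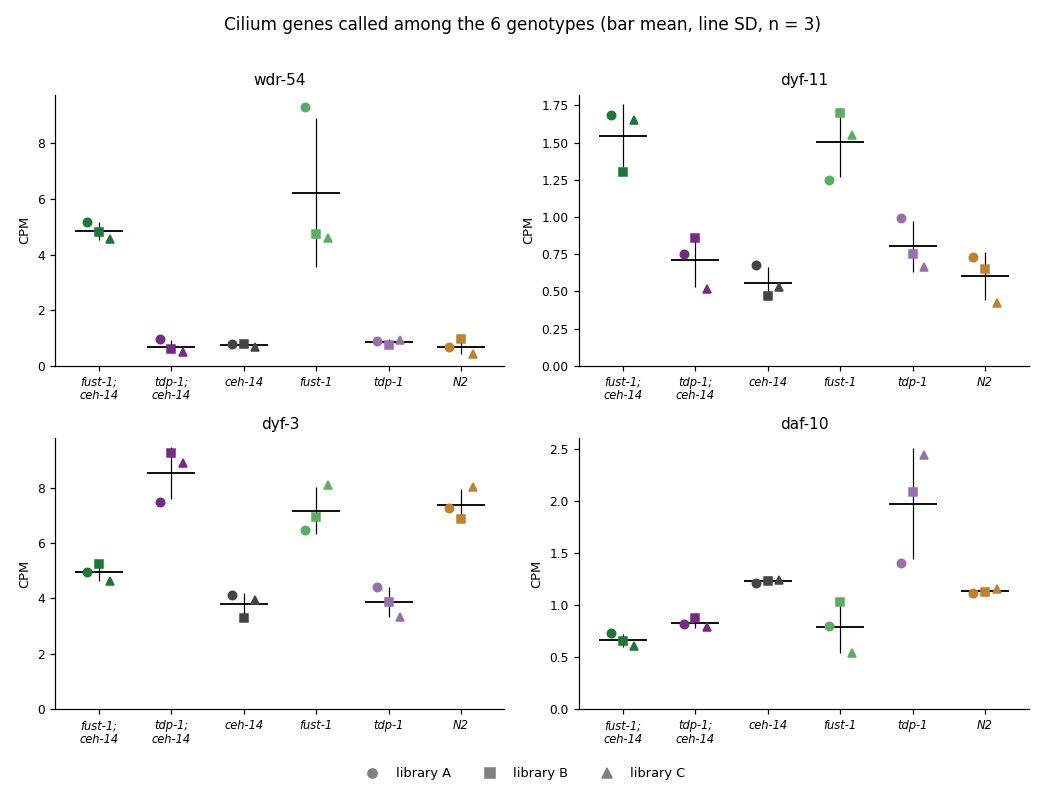
CPM of *wdr-54*, *dyf-11*, *dyf-3* and *daf-10* in each library (symbols), with the mean (bar) and SD (line) of 3 libraries per genotype. *wdr-54* and *dyf-11* are high in the 6 libraries that lack *fust-1*, *dyf-3* is low in *ceh-14*, *tdp-1* and *fust-1; ceh-14*, and *daf-10* is highest in *tdp-1*.

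With genotype only in the fit, single comparisons called few cilium genes. In *fust-1; ceh-14* against N2, 1 of 43 tested was called (edgeR, adjusted p under 0.05), where 0.351% of all genes were, and in *fust-1; ceh-14* against *ceh-14* 1 of 44 was, where 0.0308% of all genes were. In both the gene was *wdr-54*, which rose. In *tdp-1; ceh-14* against *tdp-1*, 1 of 46 was called, where 3.67% of all genes were, and it was *dyf-3*, which rose. The interaction test of *tdp-1* and *ceh-14*, which asks whether the double mutant departs from the sum of both single losses on the log2 scale, also called 1 of 46, *dyf-3*, where 0.0405% of all genes were called.

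No cilium gene was called by edgeR in the other comparisons, each fitted on its own libraries with genotype only. With the replicate letter as a block, edgeR called *dyf-3* in *ceh-14* and in *tdp-1* against N2, and *che-12* in *tdp-1; ceh-14* against N2. Calls of the other fits are given below. At an unadjusted p of 0.05 and with DESeq2, the comparisons with genotype only stood as follows. For *ceh-14* against N2 (0 of 45, against 0.0920% of all genes), 1 gene was under that unadjusted p (4.03% of all genes were), and DESeq2 called 1, *dyf-3*. For *fust-1* against N2 (0 of 45, against 0.0184%), 2 genes were under it (2.05% of all genes), and DESeq2 called 1, *wdr-54*. For *tdp-1* against N2 (0 of 45, against 0.128%), 7 genes were under it (19.2%), and DESeq2 called 1, *dyf-3*. For *tdp-1; ceh-14* against N2 (0 of 46, against 0.120%), 1 gene was under it (7.72%), and DESeq2 called 0. For *fust-1; ceh-14* against *fust-1* (0 of 45, against 0.0494%), 2 genes were under it (5.04%), and DESeq2 called 0. For *tdp-1; ceh-14* against *ceh-14* (0 of 46, against 0.00594%), 4 genes were under it (9.09%), and DESeq2 called 1, *dyf-3*. The interaction of *fust-1* and *ceh-14* (0 of 45, against 0.0237%) had 0 genes under it (1.83%) and 0 called by DESeq2. Where edgeR did call a gene, 7 cilium genes were under that unadjusted p in *fust-1; ceh-14* against N2 (8.83% of all genes), 4 in *fust-1; ceh-14* against *ceh-14* (2.25%), 8 in *tdp-1; ceh-14* against *tdp-1* (22.1%) and 4 in the interaction of *tdp-1* and *ceh-14* (11.1%). The shares of all genes are those of edgeR, and the share that DESeq2 called is not given here. These comparisons share N2 or single mutant libraries, so that their values are not independent of each other.

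**Figure D3:**
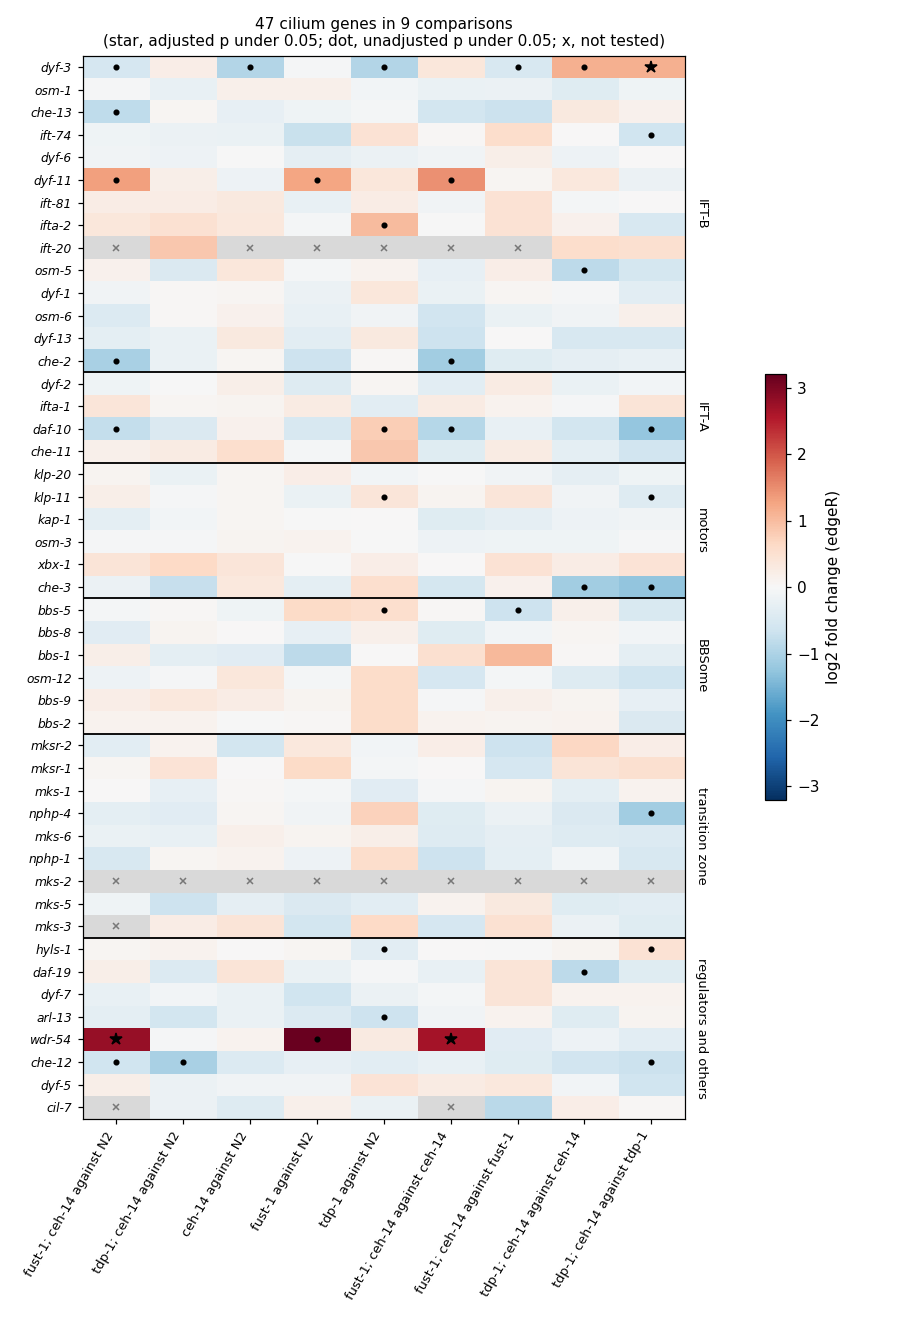
Log2 fold changes (edgeR) of the 47 cilium genes in 9 comparisons, by role, with a star where the adjusted p was under 0.05, a dot where the unadjusted p was, and a cross where a gene was not tested. Stars stand at *wdr-54* in 2 comparisons with *fust-1; ceh-14* and at *dyf-3* in *tdp-1; ceh-14* against *tdp-1*.

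Among the 14 IFT-B genes, *dyf-3*, the worm relative of CLUAP1, varied most clearly with *tdp-1* and *ceh-14*. It lies on chromosome IV (WBcel235, 3396581 to 3399231, minus strand) and overlaps no other gene. It stood at 7.47, 9.26 and 8.87 CPM in *tdp-1; ceh-14* libraries A, B and C, at 4.11, 3.31 and 3.95 CPM in *ceh-14*, at 4.4, 3.86 and 3.34 CPM in *tdp-1* and at 7.25, 6.86 and 8.02 CPM in N2. It stood at 4.96, 5.25 and 4.62 CPM in *fust-1; ceh-14* and at 6.46, 6.95 and 8.09 CPM in *fust-1*. Every library of the single mutants *ceh-14* and *tdp-1* lay below every N2 library, while the *tdp-1; ceh-14* libraries, which lack both genes, overlapped with N2 and lay above every library of either single mutant. The *fust-1; ceh-14* libraries lay between, below *fust-1* and N2 and above *ceh-14*.

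The log2 fold change of *dyf-3* was -0.94 (SE 0.18) in *ceh-14* against N2 (adjusted p = 0.254 by edgeR) and -0.93 (SE 0.18) in *tdp-1* against N2 (adjusted p = 0.104). Libraries of the same letter deviated together in these comparisons, and with letters as blocks edgeR called both (adjusted p = 0.0380 and 0.0239). Relative to *tdp-1*, *dyf-3* rose by 1.15 (SE 0.19) on the log2 scale in *tdp-1; ceh-14* (adjusted p = 0.0219). Relative to *ceh-14* the difference was 1.15 (SE 0.22) (adjusted p = 0.437, not called), while relative to N2 it was 0.21 (SE 0.21) (adjusted p = 0.703). The interaction was 2.10 (SE 0.25) (adjusted p = 0.00674). It kept its call without each of the 12 libraries in turn, at 1.93 to 2.19, and stood at 2.08 (adjusted p = 0.0190) without *tdp-1; ceh-14* C. The call against *tdp-1* was lost without *tdp-1* A, B or C or *tdp-1; ceh-14* B, with log2 fold changes of 1.05 to 1.23. The interaction of *fust-1* and *ceh-14* on *dyf-3* was 0.45 (SE 0.24) (unadjusted p = 0.0893). Of its neighbouring genes, *pdhb-1*, 440 bases away, had an interaction of 0.07 (SE 0.19). *C04C3.14*, 47 bases away, stood at 0.339 CPM or less in all libraries, too low to tell whether it moved.

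*dyf-11*, the worm relative of IFT54, which links IFT-B to its motor, followed *fust-1*. It stood at 1.68, 1.3 and 1.65 CPM in *fust-1; ceh-14* and at 1.25, 1.7 and 1.55 CPM in *fust-1*. In the libraries with an intact *fust-1* it stood at 0.75, 0.861 and 0.513 CPM in *tdp-1; ceh-14*, at 0.678, 0.468 and 0.532 CPM in *ceh-14*, at 0.994, 0.751 and 0.664 CPM in *tdp-1* and at 0.734, 0.649 and 0.422 CPM in N2. All 6 libraries that lack *fust-1* were above all 12 others. These levels rest on 38 to 95 counts per library without *fust-1* and 8 to 91 counts in the others. The log2 fold change was 1.32 (SE 0.30) in *fust-1; ceh-14* against N2, 1.46 (SE 0.26) in *fust-1; ceh-14* against *ceh-14* and 1.27 (SE 0.35) in *fust-1* against N2. None of these passed edgeR's adjusted test (adjusted p = 0.227, 0.649 and 0.9997), and DESeq2 called the comparison with *ceh-14* (adjusted p = 0.0233). The test among 6 genotypes held without each library in turn, with adjusted p of 0.00955 to 0.0324.

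No other IFT-B gene passed the test among genotypes. *ift-74*, a tubulin-binding subunit, stood at 2.13, 2.89 and 2.62 CPM in *tdp-1* and 0.66, 1.51 and 1.19 CPM in *fust-1*, against 1.61, 2.12 and 1.85 CPM in N2, so that *tdp-1* lay wholly above and *fust-1* wholly below N2. It stood at 1.34, 1.61 and 1.92 CPM in *fust-1; ceh-14*, 1.69, 1.75 and 1.44 CPM in *tdp-1; ceh-14* and 1.81, 1.74 and 1.19 CPM in *ceh-14*, which overlap with each other and with N2. *che-13*, the relative of IFT57, stood at 0.647, 0.549 and 1.17 CPM in *fust-1; ceh-14*, below each N2 library at 1.18, 1.69 and 1.53 CPM. It stood at 1.45, 1.54 and 1.57 CPM in *tdp-1; ceh-14*, 1.05, 1.25 and 1.32 CPM in *ceh-14*, 1.09, 1.34 and 1.54 CPM in *fust-1* and 1.4, 1.5 and 1.27 CPM in *tdp-1*, each of which overlapped with N2. *che-2*, the relative of IFT80, stood at 0.259, 0.24 and 0.272 CPM in *fust-1; ceh-14* on 6 to 13 counts, against 0.616, 0.508 and 0.557 CPM in *ceh-14*. It stood at 0.508, 0.511 and 0.381 CPM in *tdp-1; ceh-14*, 0.243, 0.642 and 0.164 CPM in *fust-1* and 0.639, 0.612 and 0.417 CPM in *tdp-1*, against 0.596, 0.564 and 0.422 CPM in N2. The *fust-1; ceh-14* libraries lay below *ceh-14* and N2 but overlapped with *fust-1*, where A and C were also low. Its log2 fold change against *ceh-14* was -1.12 (SE 0.28) (unadjusted p = 0.00531, adjusted p = 0.999989), which is not called. The remaining IFT-B genes (*osm-1*, *osm-5*, *osm-6*, *dyf-1*, *dyf-6*, *dyf-13*, *ift-20*, *ift-81* and *ifta-2*) had no adjusted p under 0.05 in any comparison.

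Among the 4 IFT-A genes, *daf-10*, the worm relative of IFT122, passed the test among genotypes. It stood at 0.822, 0.88 and 0.792 CPM in *tdp-1; ceh-14* and at 0.733, 0.652 and 0.607 CPM in *fust-1; ceh-14*. It stood at 1.21, 1.24 and 1.24 CPM in *ceh-14*, at 0.799, 1.03 and 0.54 CPM in *fust-1* and at 1.4, 2.09 and 2.45 CPM in *tdp-1*, against 1.12, 1.13 and 1.16 CPM in N2. The *tdp-1* libraries were above all others and both double mutants were below N2, *ceh-14* and *tdp-1* throughout. Its log2 fold change in *tdp-1; ceh-14* against *tdp-1* was -1.24 (SE 0.28) with an adjusted p of 0.0601 by edgeR, and it was called once letters were blocked (adjusted p = 0.0335). In *tdp-1* against N2 it was 0.80 (SE 0.27) (adjusted p = 0.191), and in *fust-1; ceh-14* against *ceh-14* -0.91 (SE 0.22) (unadjusted p = 0.00466, adjusted p = 0.999989). The test among 6 genotypes was lost without *tdp-1* B or *tdp-1* C, at adjusted p of 0.0661 and 0.0730. *dyf-2*, the relative of IFT144 and the IFT-A gene of highest level per length, stood at 3.11, 2.44 and 2.78 CPM in *fust-1; ceh-14*, 3.31, 3.47 and 2.39 CPM in *tdp-1; ceh-14* and 3.51, 3.58 and 3.39 CPM in *ceh-14*. It stood at 2.64, 2.18 and 2.14 CPM in *fust-1* and 3.32, 3.48 and 2.9 CPM in *tdp-1*, against 3.47, 3.3 and 2.48 CPM in N2, and no mutant lay wholly to one side of N2. *che-11* and *ifta-1* were called nowhere.

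Of the 6 motor genes none was called. *che-3*, the heavy chain of the ciliary dynein, stood at 2.49, 1.81 and 0.66 CPM in *tdp-1; ceh-14*, against 4.08, 3.67 and 4.14 CPM in *tdp-1* and 3.66, 2.78 and 3.98 CPM in *ceh-14*. Every library of the double mutant was below every library of both single mutants. The lowest *che-3* value, 0.66 CPM, was in library C, which was also low in pan-neuronal, glia, germline and body wall muscle genes. Its level was 2.89, 1.61 and 2.62 CPM in *fust-1; ceh-14* and 2.83, 2.51 and 1.19 CPM in *fust-1*, against 3.56, 2.23 and 2.37 CPM in N2. The log2 fold change was -1.27 (SE 0.43) against *tdp-1* (adjusted p = 0.171 by edgeR), which DESeq2 called. *klp-11* stood at 9.21, 7.08 and 6.92 CPM in *tdp-1; ceh-14*, against 10.2, 10.95 and 10.02 CPM in *tdp-1*, where all 3 libraries were also above N2, at 7.54, 9.23 and 7.17 CPM. It stood at 9.84, 8.69 and 8.1 CPM in *fust-1; ceh-14*, 8.12, 9.02 and 7.5 CPM in *ceh-14* and 7.38, 7.59 and 5.58 CPM in *fust-1*. Its partner *klp-20* did not show the same order. *klp-20* stood at 12.3, 15.8 and 15.2 CPM in *fust-1; ceh-14*, 11.9, 13.2 and 10.6 CPM in *tdp-1; ceh-14*, 15.2, 14.7 and 13.1 CPM in *ceh-14*, 14.9, 13.9 and 18.97 CPM in *fust-1* and 12.2, 12.8 and 14.04 CPM in *tdp-1*, against 14.4, 12.8 and 14.5 CPM in N2, and all groups overlapped with N2. The remaining motor genes (*osm-3*, *kap-1* and *xbx-1*, a dynein light intermediate chain) were within 1.65 to 2.91 CPM for *osm-3* and *kap-1* and 0.316 to 0.748 CPM for *xbx-1*.

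The 6 BBSome genes were led by *bbs-5*, a subunit that binds membrane lipids. It stood at 2.71, 2.32 and 2.83 CPM in *fust-1* and 2.47, 2.61 and 2.41 CPM in *tdp-1*, against 1.54, 1.81 and 1.9 CPM in N2, with both single mutants wholly above N2. It stood at 1.38, 1.79 and 1.72 CPM in *fust-1; ceh-14*, 1.55, 2.09 and 1.67 CPM in *tdp-1; ceh-14* and 1.36, 1.6 and 1.75 CPM in *ceh-14*. Both double mutants thus overlapped with N2 and with *ceh-14*, and lay below their RNA binding protein single mutant. The log2 fold change was 0.60 (SE 0.28) for *fust-1* against N2 and 0.53 (SE 0.21) for *tdp-1* against N2 (adjusted p = 0.9997 and 0.227 by edgeR), and neither interaction was called (adjusted p = 1 and 0.585). All 6 BBSome genes had a positive log2 fold change in *tdp-1* against N2, with a median of 0.55 against 0.01 over all genes, and all 6 a negative one in *tdp-1; ceh-14* against *tdp-1*, with a median of -0.39 against 0.02. In *tdp-1* against N2 the smallest of these changes was 0.008, and 1 of the 6, *bbs-5*, lay wholly above N2 (13.1% of all genes did). N2 C, the shallowest library, held 2 counts of *bbs-9*, 5 of *osm-12* and 6 of *bbs-2*. None of the 6 passed the adjusted test in either comparison, and both use the same *tdp-1* libraries. Agreement in sign was not particular to the BBSome. All 6 motor genes and all 4 IFT-A genes were positive in *ceh-14* against N2. All 4 IFT-A genes were negative in *tdp-1; ceh-14* against *ceh-14*.

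The 9 transition zone genes ranged over 0.115 to 2.86 CPM per kilobase, with a median of 0.246, and none of the 8 that were tested was called. *nphp-4*, or nephrocystin-4, stood at 1.26, 0.738 and 0.675 CPM in *tdp-1; ceh-14*, against 2.27, 1.95 and 1.48 CPM in *tdp-1*, without overlap. It stood at 1.04, 0.687 and 1.004 CPM in *fust-1; ceh-14*, 1.54, 1.08 and 0.963 CPM in *ceh-14* and 1.39, 1.2 and 0.54 CPM in *fust-1*, against 1.49, 1.13 and 0.686 CPM in N2, all of which overlap. The log2 fold change against *tdp-1* was -1.11 (SE 0.33) (adjusted p = 0.131 by edgeR), and it was called once letters were blocked (adjusted p = 0.0367). *mksr-2*, a B9-domain protein, stood at 1.04, 1.82 and 1.95 CPM in *fust-1; ceh-14*, 1.79, 2.57 and 2.3 CPM in *tdp-1; ceh-14*, 0.842, 1.64 and 1.62 CPM in *ceh-14*, 1.62, 2.2 and 4.02 CPM in *fust-1* and 1.6, 2.002 and 2.18 CPM in *tdp-1*, against 1.59, 2.54 and 2.11 CPM in N2. No mutant was wholly to one side of N2 for *mksr-2*, and *fust-1* C held its highest value.

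Among regulators and other cilium genes, *wdr-54*, a protein of WD repeats, changed most. It lies on chromosome X (WBcel235, 828903 to 833796, plus strand) and overlaps no other gene. It stood at 5.18, 4.81 and 4.56 CPM in *fust-1; ceh-14* and at 9.31, 4.74 and 4.6 CPM in *fust-1*. It stood at 0.967, 0.605 and 0.499 CPM in *tdp-1; ceh-14*, 0.801, 0.777 and 0.684 CPM in *ceh-14*, 0.905, 0.751 and 0.93 CPM in *tdp-1* and 0.682, 0.96 and 0.422 CPM in N2. Every library that lacks *fust-1* was above every library that has it, *fust-1* A was the highest, and the genotypes with an intact *fust-1* overlapped with each other. The levels rest on 120 to 536 counts per library without *fust-1* and 8 to 79 in the others.

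The log2 fold change of *wdr-54* was 2.79 (SE 0.29) in *fust-1; ceh-14* against N2 (adjusted p = 0.0108 by edgeR). In *fust-1* against N2 it was 3.16 (SE 0.46), which edgeR did not call on those 6 libraries (adjusted p = 0.307) but did with all 18 in 1 fit (adjusted p = 0.000255). Against N2 the double mutant lost the call without its library B or C, at 2.81 and 2.84, and against *ceh-14* the call was lost without any of 5 of the 6 libraries, at 2.60 to 2.70. In *fust-1; ceh-14* against *fust-1* the difference was -0.35 (SE 0.34) (adjusted p = 0.836), and the interaction of *fust-1* and *ceh-14* was -0.45 (SE 0.48) (unadjusted p = 0.369). Both values rest on the high library *fust-1* A, and without it they were 0.09 and 0.01 (unadjusted p = 0.693 and 0.987). *wdr-54* and *dyf-11*, which were higher in each library without *fust-1*, both lie on chromosome X, with 62163 bases between them. None of the 11 tested genes in between had an unadjusted p under 0.05 in *fust-1; ceh-14* against N2 (8.83% of all genes did), against *ceh-14* (2.25%) or in *fust-1* against N2 (2.05%). At such shares, 11 genes are too few to tell this region from other genes. Their log2 fold changes ran from -1.38 to 0.36, -0.45 to 0.35 and -1.17 to 0.68. The direct neighbours *daf-3* and *trap-2* are among the 11. The outer neighbours, *F39H12.1* of *wdr-54* and *aex-3* of *dyf-11*, were not under that p either. The lowest was *aex-3* in *fust-1; ceh-14* against N2, at -0.49 (edgeR, unadjusted p = 0.0622).

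*daf-19* itself stood at 14.97, 14.4 and 14.4 CPM in *fust-1; ceh-14*, 13.8, 9.5 and 5.53 CPM in *tdp-1; ceh-14* and 20.9, 16.02 and 13.9 CPM in *ceh-14*. It stood at 16.8, 9.18 and 6.8 CPM in *fust-1* and 13.4, 11.3 and 13.1 CPM in *tdp-1*, against 16.97, 9.93 and 11.8 CPM in N2. All 5 mutants overlapped with N2, and the test among genotypes gave an adjusted p of 0.433. Its lowest values, 5.53 and 6.80 CPM, were in *tdp-1; ceh-14* C and *fust-1* C. Both libraries were low in pan-neuronal, glia and body wall muscle genes, and *tdp-1; ceh-14* C was low in germline genes too. The part of that in *daf-19* was not tested. *daf-19* is also transcribed as forms outside ciliated neurons, and counts per gene do not tell them apart.

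*che-12* encodes a HEAT-repeat protein of sensory cilia. It stood at 2.03, 2.85 and 2.24 CPM in *fust-1; ceh-14*, 1.93, 2.26 and 1.32 CPM in *tdp-1; ceh-14*, 2.05, 2.9 and 3.29 CPM in *ceh-14*, 3.73, 3.43 and 2.16 CPM in *fust-1* and 3.48, 2.98 and 2.52 CPM in *tdp-1*, against 3.56, 3.58 and 4.27 CPM in N2. Every genotype but *fust-1* lay wholly below N2. In *tdp-1; ceh-14* against N2 the log2 fold change was -1.04 (SE 0.29) (adjusted p = 0.605 by edgeR, or 0.0429 once letters were blocked).

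*hyls-1* stood at 22.4, 21.6 and 21.8 CPM in *tdp-1*, against 26.6, 25.9 and 30.5 CPM in N2. It stood at 26.5, 30.3 and 27.4 CPM in *fust-1; ceh-14*, 24.98, 26.7 and 38.1 CPM in *tdp-1; ceh-14*, 28.3, 28.7 and 25.97 CPM in *ceh-14* and 28.99, 25.98 and 30.9 CPM in *fust-1*. The *tdp-1* libraries were below all 15 others, with a log2 fold change of -0.33 (SE 0.13) against N2 (adjusted p = 0.217 by edgeR). In *tdp-1* against N2, 14.2% of all genes lay wholly below N2. The test among 6 genotypes did not call *hyls-1* (adjusted p = 0.355). *arl-13*, a small GTPase of the ciliary membrane that was picked out after its values were seen, reached at most 1.14 CPM in the 15 mutant libraries, against 1.21, 1.52 and 1.16 CPM in N2, without overlap. Its log2 fold changes in the 5 mutants against N2 were -0.22 to -0.67, none of them called. The remaining regulators and others (*dyf-5*, *dyf-7* and *cil-7*) were called nowhere.

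**Figure D4:**
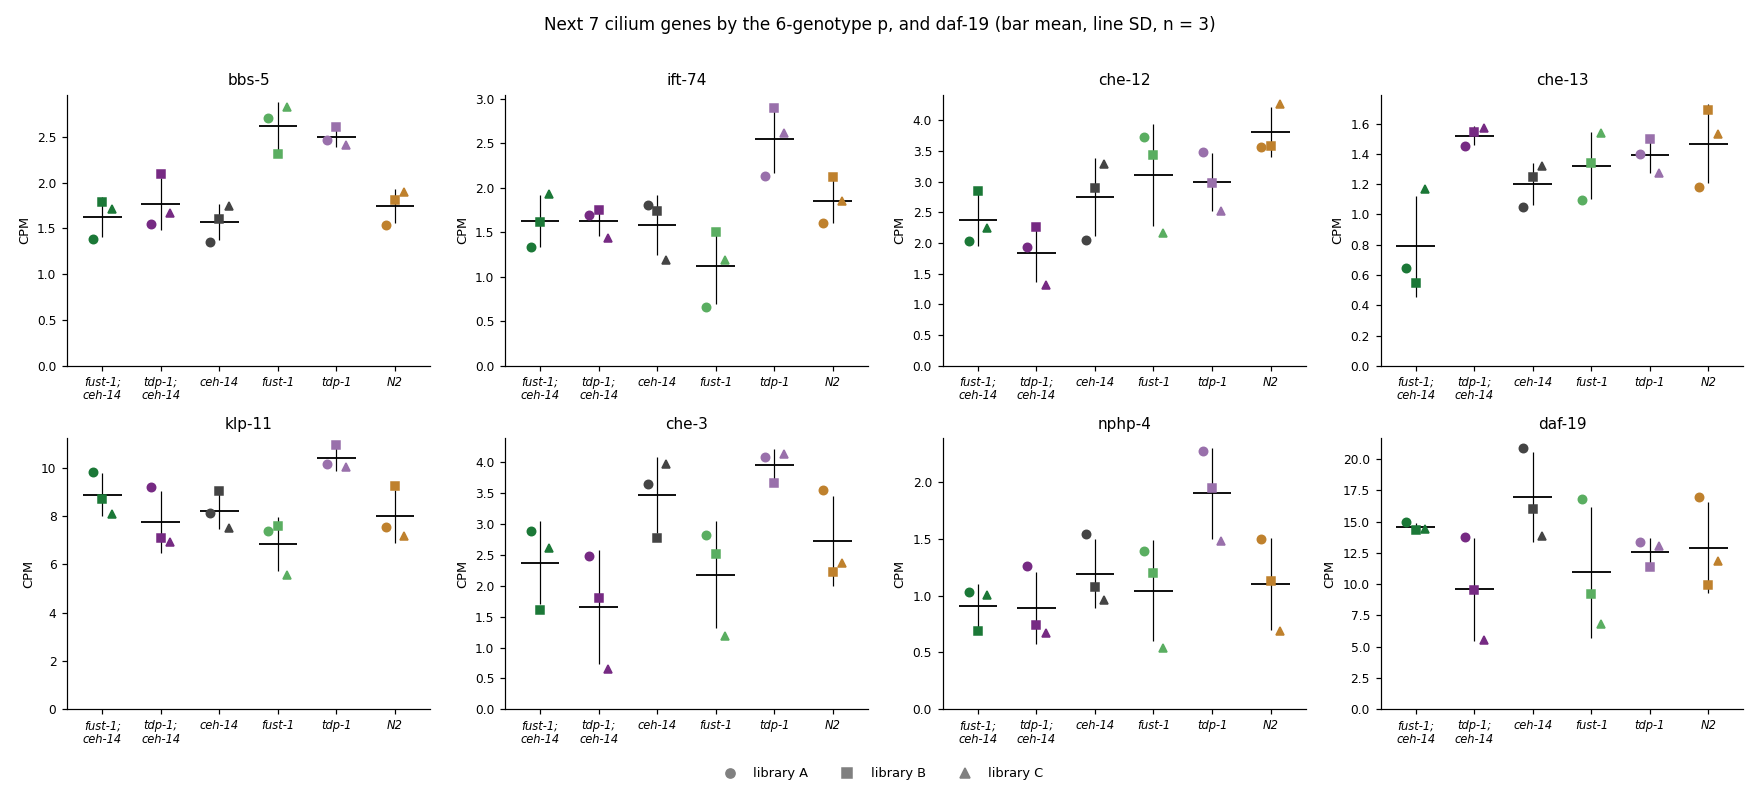
CPM of the 7 cilium genes that follow the called ones in the test among 6 genotypes, and of *daf-19*, in each library (symbols) with the mean (bar) and SD (line) of 3 libraries per genotype. *bbs-5* lies at 2.32 to 2.83 CPM in *fust-1* and 2.41 to 2.61 CPM in *tdp-1*, above the 1.36 to 2.09 CPM of the other genotypes, and *daf-19* overlaps between every mutant and N2.

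Counts of cilium genes whose groups did not overlap, with the share of all tested genes beside them, were as follows. In *fust-1; ceh-14* against N2, 3 lay above (5.54% of all genes) and 8 below (8.96%). In *tdp-1; ceh-14* against N2, 1 lay above (5.94%) and 3 below (4.99%). In *ceh-14* against N2, 1 lay above (2.16%) and 3 below (5.06%), while *fust-1* had 3 above (2.50%) and 3 below (3.82%) and *tdp-1* had 8 above (13.1%) and 4 below (14.2%).

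Against the single mutants, 4 of 44 cilium genes in *fust-1; ceh-14* lay above *ceh-14* (3.34% of all genes) and 7 below it (2.81%), and 1 above (5.55%) and 2 below *fust-1* (5.70%). In *tdp-1; ceh-14*, 3 lay above *ceh-14* (10.1%) and 5 below it (8.42%), and 3 above (15.8%) and 10 below *tdp-1* (15.7%). With 3 libraries against 3 an exact two-sided permutation test cannot give a p under 0.1. These shares cover pairs of genotypes only. For genotypes set apart from all other libraries, such as in *wdr-54*, *dyf-11*, *daf-10*, *hyls-1* and *arl-13*, the share of all genes is not given here.

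The median log2 fold change of the cilium genes differed from that of all genes by little in the comparisons with N2. It was -0.11 in *fust-1; ceh-14* against N2 (-0.01 over all genes), -0.04 in *tdp-1; ceh-14* (0.00), 0.06 in *ceh-14* (-0.02), 0.11 in *tdp-1* (0.01) and -0.11 in *fust-1* (0.02). Among the 9 comparisons of a pair of genotypes it was farthest from all genes in *tdp-1; ceh-14* against *tdp-1*, at -0.25 against 0.02, where 31 of 46 cilium genes were negative. In that comparison the pan-neuronal genes had a median of -0.36, with 19 of 21 negative, and the glia genes one of -0.74, with 5 of 6 negative. Lists of other tissues differed too. The 5 epidermis genes had a median of -1.96, all negative. Body wall muscle genes had one of -0.61 and intestine genes one of -0.43, while germline and sperm genes had medians of 0.07 and 0.17. The part of these cell types in the cilium genes' values was not tested.

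Summed over the 47 genes, the level was 128 to 130 CPM in *fust-1; ceh-14*, 118 to 127 CPM in *tdp-1; ceh-14*, 127 to 136 CPM in *ceh-14*, 124 to 138.8 CPM in *fust-1* and 122 to 132 CPM in *tdp-1*, against 125 to 135 CPM in N2. The ranges of all mutants overlapped with that of N2. Much of the sum came from *hyls-1*, *klp-20* and *daf-19*, with means of 27.3, 13.9 and 12.9 CPM over the 18 libraries. In *tdp-1; ceh-14* C, *hyls-1* was at its highest (38.1 CPM), while *daf-19* (5.53), *osm-1* (5.75) and *che-3* (0.66) were at their lowest. A similar sum therefore does not mean that the single genes held their levels. The pan-neuronal genes summed to 766 to 816 CPM in *fust-1; ceh-14*, 548 to 782 CPM in *tdp-1; ceh-14*, 767 to 898 CPM in *ceh-14*, 601 to 852 CPM in *fust-1* and 747 to 779 CPM in *tdp-1*, against 699 to 870 CPM in N2. Genes for signalling in ciliated sensory neurons (12 genes, such as the channel genes *tax-2* and *tax-4*) summed to 46.7 to 61.4 CPM over the 18 libraries, and *fust-1* C held the highest value although its pan-neuronal sum was low. Genes of male ciliated neurons (4 genes, such as *lov-1* and *pkd-2*) summed to 0.499 to 1.30 CPM.

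**Figure D5:**
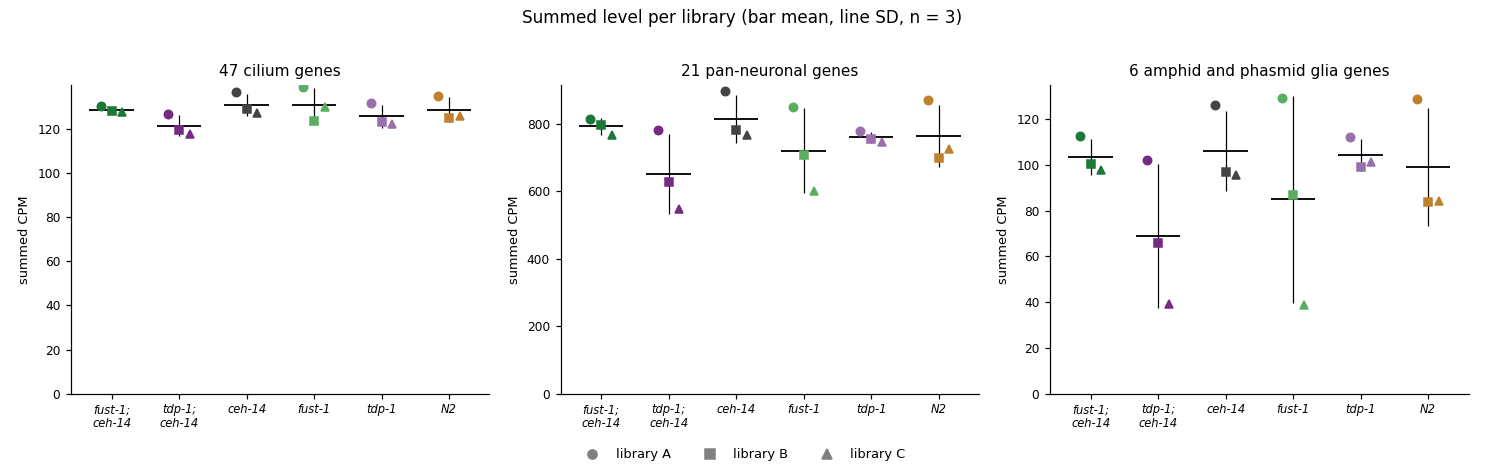
Summed CPM of the 47 cilium genes, of 21 pan-neuronal genes and of 6 amphid and phasmid glia genes in each library (symbols), with the mean (bar) and SD (line) of 3 libraries per genotype. The cilium sum, of which *hyls-1* is the largest part, stays within 118 to 138.8 CPM. The pan-neuronal sum reaches down to 548 CPM in *tdp-1; ceh-14* C and the glia sum to 38.9 CPM in *fust-1* C.

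A further 47 cilium genes outside the list (tubulins, kinases, tubulin-modifying enzymes, small GTPases and additional transition zone and BBSome genes) passed the count filter for 33 to 40 members per test. *tmem-107* had no count in any library. None was called in the 5 comparisons with N2 (edgeR). Under an unadjusted p of 0.05 were 7 of 37 in *tdp-1* (19.2% of all genes) and 3 of 33 in *fust-1; ceh-14* (8.83%). In *tdp-1; ceh-14* it was 2 of 39 (7.72%), and in *ceh-14* and *fust-1* 0 of 37 each (4.03% and 2.05%). In *tdp-1; ceh-14* against *tdp-1*, 2 of 38 were called, against 3.67% of all genes. *dyf-4*, which acts in the glia around sensory endings, fell by 2.06 on the log2 scale (adjusted p = 0.0183), and *che-14*, a Dispatched-like protein of epithelia and glia, fell by 1.53 (adjusted p = 0.0309).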

How the data were processed

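Counts per gene were deposited by the authors, who mapped reads of poly(A) libraries to WBcel235 with STAR and counted them with HTSeq (submitters' processing notes). Whether strand was used is not given in the sources used here. They are whole, unnormalized numbers. The tallies of unassigned records (8.34% to 15.7% of records) were left out of library sizes and tests. Gene names, exon lengths and neighbours came from an annotation of the same build.

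Genes passing filterByExpr were tested in R 4.3.3 with edgeR 4.0.16 (TMM factors, quasi-likelihood test, Benjamini-Hochberg adjustment over all genes tested), each of 9 comparisons on its own 6 libraries, 2 interactions on 12, and a test among 6 genotypes on all 18. Called means an adjusted p under 0.05. SE is the absolute log2 fold change over the square root of F. The fit of *fust-1; ceh-14* against N2 and the test among 6 genotypes were checked on simulated counts. The simulation used the same fixed dispersion for every gene and placed changes only in genes of higher counts. It therefore does not cover the lowest cilium genes, the interactions or the blocked fits. DESeq2 1.42.0, its size factors, no filter, blocking by replicate letter, 1 fit of all libraries and each library left out were alternatives. The cilium genes, lists and tests were chosen with earlier results of these data known. Values per library are given for *daf-19*, each called gene, those of smallest p among genotypes up to 12 genes, and the gene of highest level per length of each role. No replicate pair repeated a library (lowest chi-square per degree of freedom 25.8). Letters were taken to pair libraries where every same-letter correlation of deviations from the genotype means was over 0.1. That held for comparisons within N2, *ceh-14*, *tdp-1* and *tdp-1; ceh-14* (lowest 0.14) and for *fust-1* against N2, but not where *fust-1; ceh-14* entered (lowest -0.17). What the letters mark is not given in the sources used here.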

Additional observations from a re-analysis of the deposited data

Results flagged for a closer look

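*dyf-3* differed in how it responded to loss of *tdp-1* with and without *ceh-14*. Its interaction of *tdp-1* and *ceh-14* was 2.10 on the log2 scale (SE 0.25, edgeR adjusted p = 0.00674). The loss of *tdp-1* gave a log2 fold change of 1.15 in the *ceh-14* background (*tdp-1; ceh-14* against *ceh-14*) and of -0.93 in the wild-type background (*tdp-1* against N2), and the groups did not overlap in either. Groups of 3 libraries were not tested for single outlying samples.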

How the results depend on the processing

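No gene called in a comparison of genotypes or an interaction changed direction under any alternative run on it. The uncalled *wdr-54* values of *fust-1; ceh-14* against *fust-1* and of the interaction of *fust-1* and *ceh-14* turned to 0.09 and 0.01 on the log2 scale without *fust-1* A. Scaling by DESeq2's size factors, which moved the median over all genes by -0.0295 to 0.0207 on the log2 scale, changed no count of called cilium genes. DESeq2's own test called 1 cilium gene in *ceh-14*, 1 in *fust-1* and 1 in *tdp-1* against N2, 2 in *fust-1; ceh-14* against *ceh-14* (*dyf-11*, *wdr-54*), and for *tdp-1; ceh-14* 1 against *ceh-14* and 4 against *tdp-1* (*che-3*, *daf-10* and *nphp-4* lower, *dyf-3* higher). Without a filter on low counts, 1 was called in *fust-1* (*wdr-54*) and 1 in *tdp-1* (*dyf-3*) against N2. With all 18 libraries in 1 fit, 1 was called in *ceh-14*, 1 in *fust-1* and 1 in *tdp-1* against N2, 1 in *tdp-1; ceh-14* against *ceh-14* and 2 against *tdp-1*. With the replicate letter as a block, 1 was called in *ceh-14*, 1 in *tdp-1* and 1 in *tdp-1; ceh-14* against N2, 3 in *tdp-1; ceh-14* against *tdp-1* and 7 among the 6 genotypes (*bbs-5*, *ift-74* and *nphp-4* in addition to the 4), and the block changed the count in no other comparison. The share of all genes called under each alternative is not given here. These counts therefore do not tell whether cilium genes or genes at large gained calls. The causes of these differences were not tested.

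Leaving out each library in turn left 3 to 5 cilium genes called among the 6 genotypes, 0 to 1 in *fust-1; ceh-14* against N2, 0 to 1 against *ceh-14*, 0 to 1 in *tdp-1* against N2 (1 only without N2 B), 0 to 5 in *tdp-1; ceh-14* against *tdp-1* (5 only without *tdp-1; ceh-14* A) and 1 in the interaction of *tdp-1* and *ceh-14*. It left 0 in *tdp-1; ceh-14*, *fust-1* and *ceh-14* against N2, in *fust-1; ceh-14* against *fust-1*, in *tdp-1; ceh-14* against *ceh-14* and in the interaction of *fust-1* and *ceh-14*. For these fits too, the share of all genes called is not given here. Depth limited the lowest genes, since *mks-2* and *ift-20* held too few counts to be tested in most comparisons.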
